A study of Zea mays with 24 samples.

Results

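The genes described here are 91 maize genes with at least 1 probe whose signal sank to the background of the array after heat in 3 cytolines. They were selected on measured values. A probe was a member when all its spots were well above background (a detection flag of the scanner software) on all 12 control arrays and on none of the 12 heat arrays, and when the authors' log2 values were lower after heat by 2.5 or more in each cytoline. This gave 117 of the 133671 maize probes, in 91 of the 107027 gene IDs of the array. There was 1 member probe for 72 of the genes and 2 or more for 19. Other probes of some of these genes stayed well above background, as given further on. The falls after heat and the loss of detection of the member probes are therefore what the selection used, and they are given as a description with no test.

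A cytoline is a maize line with the nucleus of one inbred line in the cytoplasm, and thus with the mitochondria and chloroplasts, of another. cytTC221 and cytT248 carry the nucleus of TC243 in the cytoplasm of the inbred lines TC221 and T248 (the labels write cytTC248), and TC243 is the nucleus donor in its own cytoplasm. They were made by repeated backcrossing with TC243 as the pollen parent, so that a small part of the nuclear DNA of the cytoplasm donor can remain. The heat groups were 3-leaf seedlings grown for 20 days at 26 °C in the light and 20 °C in the dark and then kept for 24 h at 40 °C, and the control groups were grown for 21 days without the 40 °C step. Each of the 6 groups (heat and control of cytTC221, cytT248 and TC243) had 4 replicates, each on 1 one-colour array. The tissue was leaves and stems, and the study's methods name 3 harvested seedlings per line beside 4 replicates per group. The link between these plants and the replicates is not given in the sources used here, so the 4 replicates may not be separate plants, and the p-values below measure only the spread between these samples, which may be technical.

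Several of the members take part in building and running a leaf. Golden2-like transcription factors such as glk1 switch on the nuclear genes of chloroplast development, and phytoene synthases such as psy2 make phytoene, the first carotenoid precursor, which the photosynthetic membranes need as protective pigment. Glossy genes act on the leaf surface, as gl4a does in wax synthesis, or on the juvenile identity of the leaf, as gl15 does. Linker histones and HMG-box proteins bind the DNA between and around nucleosomes. Of the 91 genes, 62 matched exactly 1 entry of the RefSeq annotation, 1 matched several and 28 matched none, and 14 had a gene name. The others are known here by their ID only.

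An array held 176026 maize spots, of which 36.9% to 43.1% were well above background. Levels are log2 of the background-corrected median intensity relative to the 75th percentile of the array, so that 0 is a bright spot and about -5 is the background. The 24 arrays lay on 6 slides of 4. Of the markers of leaf cells, the mesophyll gene pep1 and the bundle sheath genes me3 and ssu1 were well above background on all 24 arrays. pep1 averaged -1.30 in heat and 5.14 in control, me3 averaged -0.06 in heat and -1.77 in control, and ssu1 averaged -2.38 in heat and -2.58 in control. The part of the makeup of leaf cells in the results below was not tested. The shoot apex gene kn1 was on none, the root gene rtcs was on 0 heat arrays and 1 control array, the root hair gene rth3 was on 8 heat and 12 control arrays at levels of -3.91 and -3.53, and 11 of the 14 zein genes of the seed were on none. The background itself stood higher on the heat arrays after scaling. The median of the 600 negative control spots lay between -4.95 and -4.17 on the heat arrays and between -5.25 and -4.80 on the control arrays. These array medians averaged -4.68 and -4.99 (heat and control) in cytTC221, -4.31 and -5.07 in cytT248, and -4.56 and -4.91 in TC243.

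All member probes were well separated between heat and control, as the selection required. Their mean level over the 12 heat arrays lay between -4.54 and -4.17, with a median of -4.35, and over the 12 control arrays between -1.84 and 2.69, with a median of -0.99. Members were thus rather bright in unstressed seedlings, while the 47988 probes detected on all 12 control arrays had a median control level of -2.09. A fall of the chosen size is only possible for a probe bright enough in control. In scanner units the median intensity of a member was 77.5 to 93.1 on the heat arrays, over a local background of 54.8 to 58.9, against 565 to 13000 on the control arrays. Replicates lay close together, with a median SD over the member probes of 0.22 and 0.11 (heat and control) in cytTC221, 0.14 and 0.11 in cytT248, and 0.20 and 0.11 in TC243.

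**Figure D1:**
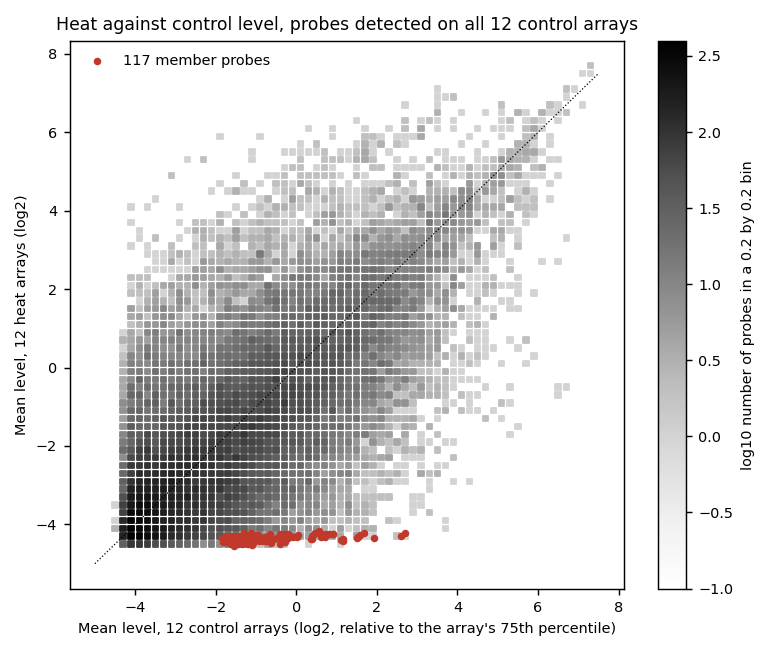
Mean log2 level over the 12 heat arrays (y) against the mean over the 12 control arrays (x), with the 117 member probes as red points over the density of the 47988 probes detected on all 12 control arrays, and a dotted line where both are equal. The members form a flat band between -4.54 and -4.17 in heat, whatever their control level.

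Because the heat levels lie at background, a fold regulation (FR) of a member is a lower bound. It was computed as the mean control level against the mean, over the heat arrays, of the higher of the probe's own level and the lowest level among probes well above background. In cytTC221 members were at least 6.01-fold to at least 132-fold lower after heat, with a median bound of 10.5. The median bound was 8.42 in cytT248 (from 4.49 to 101) and 11.7 in TC243 (from 5.75 to 132). The bounds are smallest where the background on the heat arrays is highest, in cytT248, and they do not rank the cytolines. In bulk tissue, fewer cells of a type and less RNA per cell cannot be told apart, so a lower level says nothing on which of them changed.

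Whether these genes were silent in heat cannot be read from this flag. The scanner software also marks spots as positive and significant, a milder test of signal over local background. Of the 1404 member values on the heat arrays, 40.5% carried this mark, against 16.7% for probes that were well above background on no array of the series. By another measure, 34.5% of the member values on the heat arrays exceeded the 99th percentile of the negative control spots of their array, against 13.4% for the probes detected nowhere. For 10 of the 117 probes no heat array had the positive mark, for 106 it was 1 to 11 arrays, and for 1 probe, of GRMZM2G006363 (mean heat level -4.17), all 12. The data give a level under the detection limit and do not show an absent transcript.

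The size of the fall set the border of the selection. Just inside lay GRMZM5G831835, with log2 differences of heat minus control in the authors' values of -2.5 in cytTC221, -2.59 in cytT248 and -2.70 in TC243. Just outside lay GRMZM2G306919, with -2.49, -2.65 and -2.66 in the same order. GRMZM2G565911 (largest of its values -2.52) and GRMZM2G042032 (-2.52) were also inside, and GRMZM2G126285 and GRMZM2G354604 (-2.49 each) outside. There is no gap at the border, and another 1946 probes had the same pattern of detection with a smaller fall.

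glk1, the chloroplast development factor, had the brightest member probe in control, though probes outside the selection were brighter for some member genes. Its T01 probe (the number of the transcript model) read -4.72 on the lowest, -4.23 on the median and -3.83 on the highest of the 12 heat arrays. On the control arrays it read 2.67, 2.54, 2.52 and 2.64 in cytTC221, 2.67, 2.6, 2.62 and 2.62 in cytT248, and 2.81, 2.84, 2.85 and 2.89 in TC243. No control array came near a heat array, and glk1 was at least 132-fold lower in cytTC221, at least 99.2-fold in cytT248 and at least 132-fold in TC243. The T02 probe had nearly the same control means of 2.53, 2.53 and 2.73 in cytTC221, cytT248 and TC243.

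psy2, the phytoene synthase, read between -4.66 and -4.07 on the heat arrays with a median of -4.41. Its control levels were 0.09, 0.15, 0.12 and 0.08 in cytTC221, 0.61, 0.49, 0.40 and 0.51 in cytT248, and 0.53, 0.29, 0.68 and 0.49 in TC243. The control arrays of cytTC221 all lay below those of the other lines. The bounds were 23.4-fold, 24.4-fold and 28.8-fold in cytTC221, cytT248 and TC243.

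HAK8 belongs to the HAK family of potassium transporters and had more member probes than any other gene, 6. The brightest (T03) read -4.63, -4.20 and -3.92 on the lowest, median and highest heat array. The control levels were 1.70, 1.70, 1.73 and 1.69 in cytTC221, 1.65, 1.58, 1.63 and 1.62 in cytT248, and 1.74, 1.78, 1.47 and 1.70 in TC243. The TC243 arrays overlapped both other lines in control, while the cytTC221 arrays lay just above those of cytT248, and the 6 probes had mean control levels from 1.15 to 1.67. HAK8 was at least 67.7-fold lower in cytTC221, 51.7-fold in cytT248 and 58.9-fold in TC243 by the T03 probe.

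mpao1 encodes a polyamine oxidase, an enzyme that oxidises polyamines and releases hydrogen peroxide. Its T03 probe read -4.88, -4.30 and -3.90 on the lowest, median and highest heat array. In control it read 0.75, 0.60, 0.48 and 0.79 in cytTC221, 0.12, 0.31, 0.36 and 0.49 in cytT248, and 1.03, 1.14, 1.18 and 1.33 in TC243. The 4 TC243 arrays lay above all 8 arrays of the other lines. The bounds were 36.4-fold, 21.7-fold and 41.5-fold in cytTC221, cytT248 and TC243.

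PER42, a peroxidase, read -4.69, -4.37 and -4.02 on the lowest, median and highest heat array by its T04 probe. Its control arrays read -1.97, 0.50, 0.49 and 0.48 in cytTC221, 0.57, 0.42, 0.50 and 0.62 in cytT248, and 0.72, 0.74, 0.66 and 0.80 in TC243. Replicate 1 of cytTC221 control stood apart for this probe and not for the T03 probe of the gene, which read -0.66 there and -0.84, -0.83 and -0.66 on the other 3 arrays of the group. The T04 bounds were 19.8-fold, 25.2-fold and 33.5-fold in cytTC221, cytT248 and TC243.

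gl4a, of the glossy4 type of wax synthesis genes, read between -4.96 and -4.13 on the heat arrays with a median of -4.55, and none of them had the positive mark. On the control arrays it read -1.79, -1.60, -1.53 and -1.38 in cytTC221, -1.30, -1.30, -1.12 and -1.16 in cytT248, and -0.41, -0.79, -0.55 and -0.31 in TC243. The control levels of the 3 lines did not overlap. gl15, the AP2-domain factor that keeps leaves juvenile, read between -5.13 and -4.06 on the heat arrays with a median of -4.36. In control it read -0.87, -0.93, -0.99 and -1.0 in cytTC221, -1.66, -1.73, -1.58 and -1.66 in cytT248, and -1.33, -1.49, -1.56 and -1.46 in TC243, so that cytTC221 lay above the other lines.

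The member probes of both chromatin proteins among the named members lay lower in the scale. his1, a linker histone H1, read between -4.79 and -4.04 on the heat arrays (median -4.31) by its member probe T03. Without stress it read -1.11, -1.23, -1.24 and -1.25 in cytTC221, -0.68, -0.81, -0.63 and -0.65 in cytT248, and -0.75, -0.66, -0.60 and -0.58 in TC243. MNB1B, an HMG-box protein, read between -4.65 and -3.98 in heat (median -4.32) by its T02 probe. Its control arrays read -0.47, -0.58, -0.64 and -0.43 in cytTC221, -0.49, -0.54, -0.43 and -0.91 in cytT248, and -1.06, -0.93, -0.90 and -0.79 in TC243. The cytTC221 arrays were thus lowest for his1 and among the highest for MNB1B.

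The member probes given for the remaining named genes averaged below the median member (-0.99) over the 12 control arrays. Brighter probes of ARF21 and MFSP are given further on. MYBR41, of the MYB-related factors, read between -4.79 and -4.15 on the heat arrays (median -4.43). In control it read -2.04, -2.05, -1.66 and -1.84 in cytTC221, -1.06, -0.31, -0.46 and -0.52 in cytT248, and -1.46, -1.17, -1.07 and -1.26 in TC243, with no overlap between cytTC221 and the other lines. ARF21, an auxin response factor, had control means of -1.34 ± 0.07 in cytTC221, -1.29 ± 0.11 in cytT248 and -1.45 ± 0.20 in TC243 (SD, n = 4 each). MFSP averaged -1.65 ± 0.07, -1.51 ± 0.09 and -1.47 ± 0.04 and sfp1 averaged -1.55 ± 0.08, -1.66 ± 0.13 and -1.70 ± 0.12 in the same lines and order. sfp2 read -1.60, -1.88, -1.89 and -1.93 in cytTC221 control, -1.80, -1.91, -1.81 and -1.92 in cytT248 control, and -1.15, -1.24, -1.17 and -1.11 in TC243 control. TC243 lay above both other lines for sfp2 but not for sfp1.

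**Figure D2:**
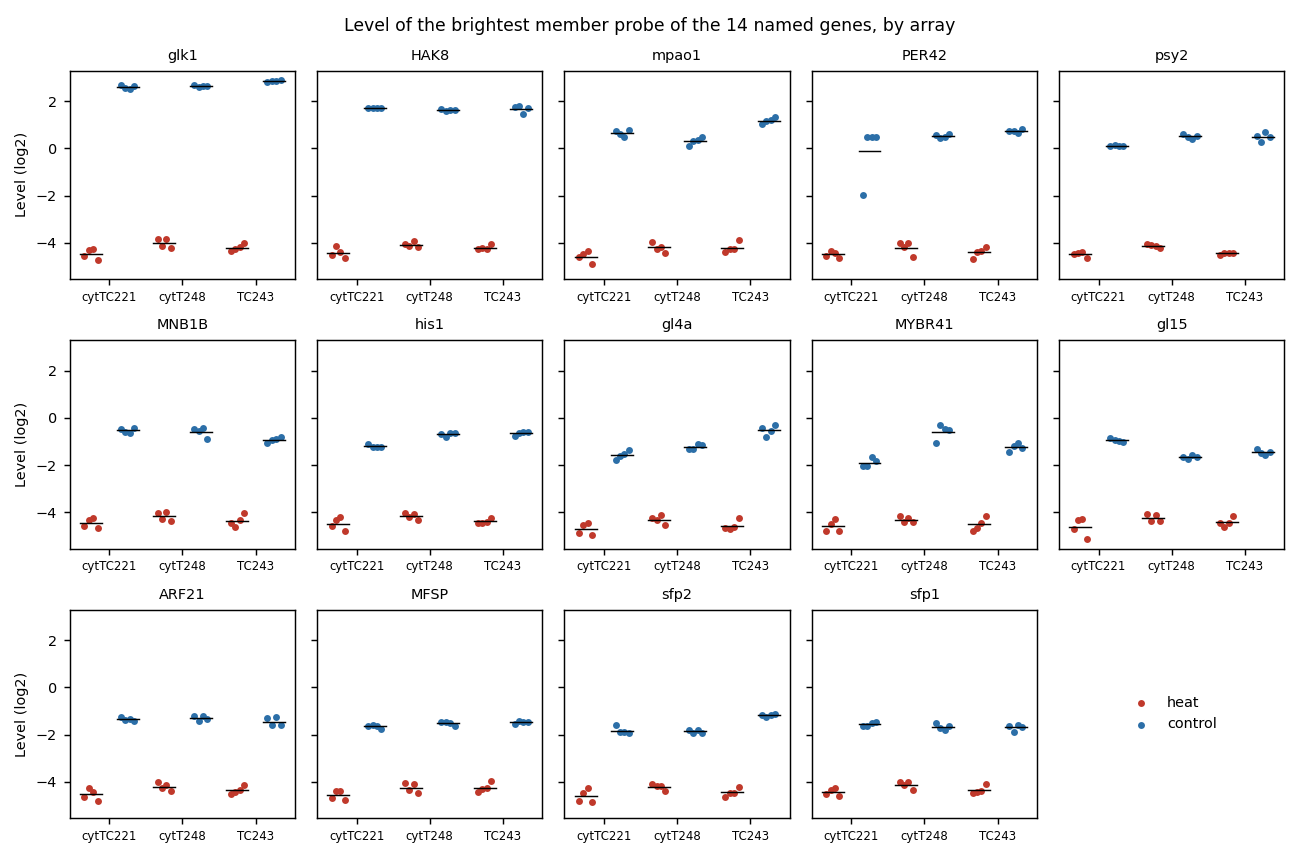
Log2 level of the brightest member probe of each of the 14 named genes on every array, with heat (red) left of control (blue) in cytTC221, cytT248 and TC243, 1 point per array and a line at the mean of 4. The heat points of all 14 genes lie between -5.13 and -3.83, while the control points run from -2.05 to 2.89, and 1 control array of cytTC221 stands apart for PER42.

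The member genes also had probes that the selection left out. The 91 genes had 90 other probes, in 47 of them, and 44 genes had none. By the sign of the mean difference, 58 of the 90 were lower after heat in all 3 cytolines, 27 were higher in all 3, and the others had mixed signs. The 24 probes that were detected on no control array were all among the higher ones, and the scaled background is itself higher on the heat arrays. Of the 90, 57 were detected on all 12 control arrays, and 56 of these had the lower sign in all 3 cytolines, against 44.8% of all non-member probes detected on all 12 control arrays. The genes were chosen because another of their probes fell on the same arrays, so this count is a description. Of these 57, 16 were still detected on all 12 heat arrays, 23 on some and 18 on none, and 13 of the 18 were outside the members by the size of the fall alone. A probe counts here as detected when all its spots were, and the rest of the 18 had a spot well above background in heat. As a background, 79.3% of all non-member probes detected on all 12 control arrays were detected on all 12 heat arrays. The other probes share genes and arrays with the members and are no independent measure.

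By these probes 12 of the 91 genes had signal well above background on all 12 heat arrays, 28 on at least 1, and 63 on none. The 63 include the 44 genes with no other probe, for which the selection fixed this outcome. All 28 are among the 47 genes with another probe. his1 was one of the 12 genes with signal on all heat arrays. Its T01 probe was detected throughout, with means of -3.86 ± 0.20 and 1.66 ± 0.07 (heat and control) in cytTC221, -3.56 ± 0.20 and 1.90 ± 0.15 in cytT248, and -3.89 ± 0.17 and 2.07 ± 0.10 in TC243 (SD, n = 4 each). These differences of -5.53, -5.45 and -5.96 were measured above background, and the dimmer member probe could not have shown them in full.

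Other transcripts of named members behaved likewise. The T04 probe of MFSP was detected on every array and averaged -2.77 in heat and 2.5 in control in cytTC221, -1.91 and 2.84 in cytT248, and -1.41 and 2.76 in TC243. The T01 probe of ARF21 differed by -6.41, -6.06 and -6.23 in cytTC221, cytT248 and TC243 and was detected on 7 heat arrays. The T02 and T03 probes of psy2 were detected on 2 and 5 heat arrays, and the T04 probe of HAK8 on 2. Each of these probes was brighter in control than, or about as bright as, the member probe of its gene.

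A few genes had probes that departed from the members. For GRMZM2G035708, known by ID only, 5 of the 6 other probes were detected throughout, with heat levels from -0.85 to 1.82 and differences of heat minus control from -3.12 to -1.90, so that only 1 transcript model of this gene meets the selection. The T05 probe of mpao1 was dim (-3.88 in cytTC221 control) and differed by -0.25, 0.47 and -0.26 in cytTC221, cytT248 and TC243. The T01 probe of GRMZM2G090010 was the single one that was higher after heat by 1 or more in all 3 cytolines. It averaged -1.86 in heat and -4.38 in control in cytTC221, -2.63 and -4.52 in cytT248, and -2.40 and -4.30 in TC243, was detected on 12 heat arrays and 9 control arrays, and so ran against the member probe T03 of the same gene, which averaged -4.41 in heat and -1.27 in control in cytTC221. The T02, T04, T05 and T06 probes of this gene were lower after heat in all 3 cytolines. T02 differed by -2.76, -2.15 and -2.8 in cytTC221, cytT248 and TC243.

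**Figure D3:**
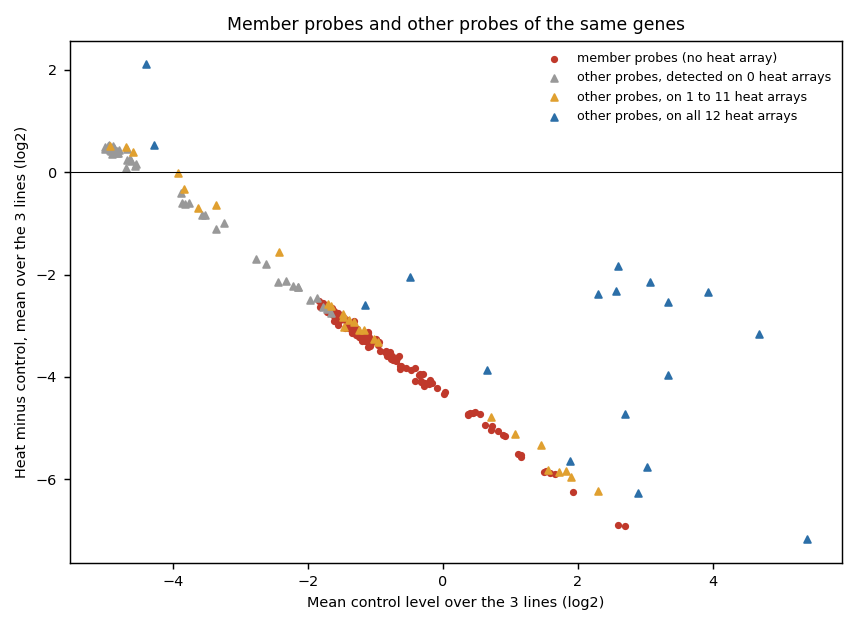
Heat minus control (log2, mean over the 3 cytolines, y) against the mean control level (x) for the 117 member probes (red points) and the 90 other probes of the same genes (triangles, coloured by the number of heat arrays on which they were detected). Other probes detected on all heat arrays had higher heat levels than the members, and lie above them at a like control level. GRMZM2G090010 has the triangle well above 0.

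The control groups address whether the 3 lines differed in these genes without stress. The cytoplasm and any nuclear DNA left from its donor cannot be told apart in such a difference. This contrast is not the one the selection used, although the same control arrays entered it. It was fitted with limma over the 55317 probes detected throughout at least 1 control group, and a probe was called at an adjusted p below 0.01. The 3 comparisons share their control arrays pairwise, and so their counts are given side by side and not set against each other.

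More members were lower than higher in both cytolines with a foreign cytoplasm, set against TC243. In cytTC221, 38 member probes (32.5%, in 30 genes) were lower than in TC243, against 5.8% of all probes tested, and 8 (6.84%) were higher, against 6.16%. In cytT248, 37 (31.6%, in 29 genes) were lower than in TC243, against 6.85% of all probes tested, and 8 (6.84%) were higher, against 3.94%. Between cytTC221 and cytT248, 18 (15.4%) were higher in cytTC221, against 6.12%, and 12 (10.3%) were lower, against 3.36%. The share of members higher in cytTC221 than in TC243 is near the background. The probes tested were not matched to the members, which were rather bright in control. The part of brightness in these shares was not tested.

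The median difference of the members was small, -0.14 for cytTC221 minus TC243, -0.17 for cytT248 minus TC243 and 0.04 for cytTC221 minus cytT248, against -0.02, -0.06 and 0.04 over all probes tested. Among the 1946 probes with the same pattern of detection but a smaller fall, 12.4% were lower in cytTC221 and 16.9% in cytT248 than in TC243. Those shares lie between the members and all probes, and their difference from the members was not tested. This set was not matched to the members for control level either. With the 75th percentile taken over all maize spots, the split was 13 higher and 31 lower for cytT248 minus TC243, and 14 higher and 16 lower for cytTC221 minus cytT248, so that the larger side of the last comparison depends on the scaling. Over all probes 12.1% and 11.6% were called in the same comparisons and scaling, in both directions together.

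These counts depended on how the slide entered the fit. With the slide as a fixed block (the block meant below), 15 member probes were lower and 4 higher in cytTC221 than in TC243. In cytT248, 30 were lower and 5 higher than in TC243, and 5 were lower and 6 higher in cytTC221 than in cytT248. The share called over all probes fell as well, to 4.28%, 7.09% and 3.42% in both directions together, against 12%, 10.8% and 9.48%. With the slide as a random block (correlation 0.017), 46, 45 and 30 member probes were called, as without a block. The shares over all probes were then 12.1%, 11% and 9.58%. Every member probe called without a block kept its sign on each slide that its 2 lines shared. The calls came from these same arrays, so this is a description and no separate check. cytTC221 control shared 2 slides with each other line, and cytT248 and TC243 shared 4. Replicates 2 and 3 of cytTC221 control lay on slides with no other control array. The fixed block therefore left them out of the differences between lines. The cytT248 control arrays sat at even positions of the slides and those of TC243 and cytTC221 at odd ones, so that position and line cannot be told apart in the comparisons with cytT248.

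**Figure D4:**
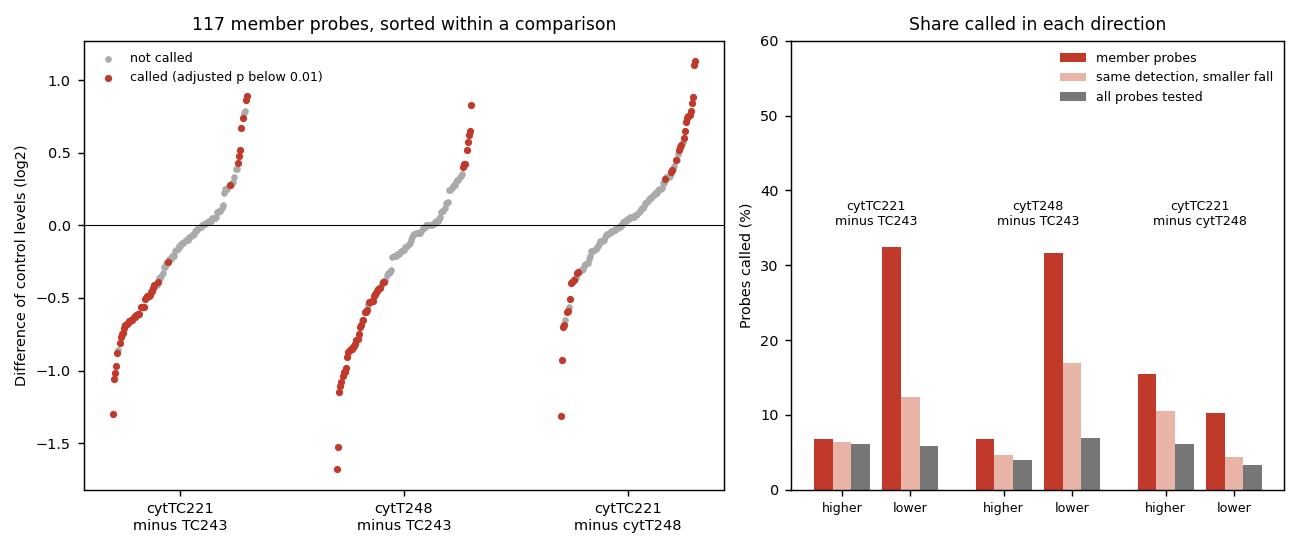
Left, difference of control levels (log2) of the 117 member probes in cytTC221 minus TC243, cytT248 minus TC243 and cytTC221 minus cytT248, sorted within a comparison, with called probes in red. Right, percent of probes called higher and lower among the members, the 1946 probes with the same detection but a smaller fall, and all 55317 probes tested, where the members lower than TC243 (32.5% and 31.6%) stand above the other bars.

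Among the named members, those lower in cytTC221 than in TC243 were gl4a (-1.06, SE 0.11, adjusted p = 1.47e-05 with limma), sfp2 (-0.66, SE 0.08, adjusted p = 4.53e-05), MYBR41 (-0.66, SE 0.15, adjusted p = 0.00734), his1 (-0.56, SE 0.07, adjusted p = 5.65e-05), mpao1 (-0.67, SE 0.06, adjusted p = 2.08e-06 by T04, and -0.51 by T03), psy2 (-0.39, SE 0.08, adjusted p = 0.00384) and glk1. For glk1 the T01 probe differed by -0.25 (SE 0.06, adjusted p = 0.00697) and the T02 probe by -0.21, which missed the threshold (adjusted p = 0.0731 with limma). With the slide as a block, gl4a, sfp2 and mpao1 stayed past the threshold, while his1 (-0.53, adjusted p = 0.0161), MYBR41 (-0.60, adjusted p = 0.0251), psy2 (-0.47, adjusted p = 0.0437) and glk1 (-0.19, adjusted p = 0.214) did not. The differences of psy2 and glk1 are small beside their distance between heat and control.

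gl15 and MNB1B went the other way. gl15 was higher in cytTC221 than in TC243 by 0.52 (SE 0.07, adjusted p = 1.01e-04 with limma), on both shared slides, and by 0.50 with the slide as a block (adjusted p = 0.0170). MNB1B was higher in cytTC221 by 0.48 (SE 0.08, adjusted p = 0.00114) by its T01 probe, while the T02 probe missed the threshold with 0.39 (adjusted p = 0.0170), and the T01 probe with the slide as a block (0.38, adjusted p = 0.0858).

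In cytT248 the lower named members were mpao1 (-0.82, SE 0.06, adjusted p = 5.25e-07 with limma by T04, and -0.85 by T03), gl4a (-0.70, SE 0.11, adjusted p = 6.26e-04) and sfp2 (-0.69, SE 0.08, adjusted p = 4.12e-05). MYBR41 was higher than in TC243 by 0.65 (SE 0.15, adjusted p = 0.00817) and MNB1B by 0.40 (SE 0.08, adjusted p = 0.00425) by T01, which missed the threshold with the slide as a block (adjusted p = 0.0201). psy2 (0.00, SE 0.08) and his1 (-0.05, SE 0.07) did not pass the threshold. MYBR41 therefore lay below TC243 in cytTC221 and above it in cytT248, and cytTC221 minus cytT248 was -1.31 (SE 0.15, adjusted p = 4.02e-05).

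cytTC221 and cytT248 also differed in other named members. psy2 was lower in cytTC221 than in cytT248 (-0.39, SE 0.08, adjusted p = 0.00426 with limma), and so was his1 (-0.51, SE 0.07, adjusted p = 1.34e-04). With the slide as a block these had adjusted p = 0.0534 and 0.0283. gl15 was higher in cytTC221 by 0.71 (SE 0.07, adjusted p = 5.76e-06), also with the block. HAK8, PER42, ARF21, MFSP and sfp1 passed the threshold in none of the 3 comparisons with any of their member probes. For the T03 probe of HAK8 the differences were 0.03, -0.05 and 0.09 (SE 0.07 each). For the T04 probe of PER42, the cytTC221 control array that stood apart widened the spread of the fit in all 3 comparisons. The TC243 control arrays lay above all those of the other lines by that probe.

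The member that was furthest below TC243 in both other lines was GRMZM2G015226, and the one furthest above was GRMZM2G384661, both known by ID only. GRMZM2G015226 read -1.90, -1.37, -1.19 and -1.60 in cytTC221 control, -2.0, -2.36, -1.66 and -1.60 in cytT248 control, and -0.12, -0.23, -0.23 and -0.30 in TC243 control. It was lower than in TC243 in cytTC221 (-1.30, SE 0.17, adjusted p = 1.14e-04 with limma) and in cytT248 (-1.68, SE 0.17, adjusted p = 1.79e-05). GRMZM2G384661 read -0.07, 0.27, 0.18 and 0.11 in cytTC221 control, -0.10, 0.30, 0.08 and -0.06 in cytT248 control, and -0.77, -0.70, -0.79 and -0.83 in TC243 control, higher by 0.89 and 0.83 (SE 0.09 each, adjusted p = 1.88e-05 and 5.42e-05). Both genes had no overlap between TC243 and the other lines.

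Named relatives of the members and other genes of leaf pathways show what heat did around them, and here heat could be tested. In 19 lists of gene families, 257 measured genes that were no members had a heat contrast in the limma fit over all 24 arrays. Of these, 119 were lower in all 3 cytolines, 54 higher in all 3, and 84 neither, at an adjusted p below 0.01 in each. Over all 48264 genes tested, 22.9% were lower and 36.5% higher in all 3. That background depends on the scaling. With quantile normalization 31.5% of all genes were lower and 30% higher, and the listed genes gave 153 lower and 49 higher. In the main scaling the median of all genes moved by 0.13, 0.48 and 0.27 in cytTC221, cytT248 and TC243, and by -0.02, 0.08 and 0.06 with quantile normalization.

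The 6 measured light-harvesting genes, which encode the chlorophyll-binding antenna proteins, were all lower in all 3 cytolines, with differences from -7.65 to -1.09 and medians of -3.87, -3.38 and -3.53 in cytTC221, cytT248 and TC243. lhcb6 had the widest, -7.65, -7.04 and -6.91. These genes stayed detected in part, 4 of the 6 on all 12 heat arrays. Of the 2 other measured carotenoid genes PSY1, another phytoene synthase, was lower in all 3 cytolines. It averaged -0.69 ± 0.07 in heat and 1.67 ± 0.11 in control in cytTC221, -1.36 ± 0.08 and 2.19 ± 0.07 in cytT248, and -1.35 ± 0.19 and 2.14 ± 0.10 in TC243 (SD, n = 4 each). Its differences of -2.36, -3.54 and -3.49 (adjusted p = 8.39e-18, 4.07e-21 and 4.97e-21 with limma) left it well above background on every heat array, while HYD1 passed in cytT248 alone, with a difference of 0.70. In that line the median of all genes moved by 0.48 in this scaling and by 0.08 with quantile normalization. The part of the scaling in the difference of HYD1 was not tested.

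The Golden2-like family did not follow glk1 as a whole. Of its 6 other measured members 2 were lower, 2 higher and 2 neither. GLK44 averaged 0.90 ± 0.30 in heat and -2.90 ± 0.69 in control in cytTC221, 1.51 ± 0.12 and -4.33 ± 0.33 in cytT248, and 1.41 ± 0.09 and -4.10 ± 0.10 in TC243 (SD, n = 4 each). It was higher after heat by 3.81, 5.84 and 5.51, and it was detected on all 12 heat and on 11 control arrays. GLK13 was lower, with -2.10, -2.30 and -2.22 in cytTC221, cytT248 and TC243.

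Among HMG-box proteins and linker histones 3 of 5 other genes were lower and 2 higher in all 3 cytolines. his1a, another linker histone, averaged -1.14 ± 0.70 in heat and 3.18 ± 0.20 in control in cytTC221, -0.78 ± 0.34 and 3.41 ± 0.24 in cytT248, and -0.40 ± 0.04 and 3.94 ± 0.14 in TC243 (SD, n = 4 each). It was lower as his1 was, with -4.32, -4.19 and -4.34, and stayed well above background. hmg2 and HMGe, the genes that were higher, differed by 0.27 to 0.77, and that direction rests on the scaling, since 1 of them was higher in all 3 cytolines with quantile normalization and 0 with the 75th percentile over all maize spots.

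Potassium transporters and channels fell more often than they rose. Of 17 others besides HAK8, 11 were lower and 4 higher in all 3 cytolines, and 2 neither. HAK11 differed by -3.54, -3.0 and -3.02 in cytTC221, cytT248 and TC243 and was detected on 3 heat arrays, and HAK23 was higher by 0.48, 0.78 and 1.22. In the sfp list 1 of 5 others was lower and 3 higher (2 with the 75th percentile over all maize spots), and the lower one was sfp6 with -3.32, -3.0 and -3.52. The single other measured wax gene, gl1, was lower in all 3 cytolines and was well above background on 1 heat array. None of the 3 other peroxidases passed in all 3 cytolines.

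The families of transcription factors and hormone genes held lower and higher genes in differing shares, whose order depended on the scaling. Of the auxin transport and response genes 18 of 35 were lower and 2 higher in all 3 cytolines, and the member ARF21 belongs to this family. Of the homeobox and TCP genes 11 of 19 were lower and 4 higher, and of the bHLH genes 13 of 28 and 4, of the MYB and MYB-related genes 16 of 38 and 9, of the AP2/ERF genes 7 of 19 and 5, and of the WRKY genes 7 of 16 and 3. With quantile normalization the lower genes were 23 of 35 auxin, 12 of 19 homeobox and TCP, 20 of 28 bHLH and 22 of 38 MYB and MYB-related genes. The bZIP genes were the list with more higher than lower genes among those of 10 or more, with 12 of 26 higher and 8 lower, although quantile normalization gave 12 higher and 13 lower. In the other lists, 2 of 2 Dof genes, 5 of 13 aquaporins, 3 of 6 benzoxazinoid synthesis genes and 4 of 10 cytokinin genes were lower, and 0, 2, 1 and 1 higher.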

How the data were processed

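The authors deposited the scanner output of 24 one-colour arrays (Agilent Feature Extraction version 11, per the submitters' processing notes), in which each spot has a median intensity, a local background intensity and detection flags, and a table of their log2 values, which appeared to be quantile-normalized within each cytoline and were used for the selection of members alone and as an alternative. No column was left without a sample (0 unused columns). Gene IDs are the probes' transcript names without the transcript number, and names come from RefSeq (Zm-B73-REFERENCE-NAM-5.0), used for names only. No probe or gene sequence was used here.

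After normexp background correction with an offset of 50, log2 median intensities were expressed against an array-wise 75th percentile, computed over the 46854 maize spots well above background on all 24 arrays. Spots with an outlier flag were left out and spots of a probe averaged. Control groups were compared with limma 3.58.1 (lmFit, eBayes; R 4.3.3) over the 12 control arrays, and listed genes over all 24 arrays, with the kept probes of a gene averaged. p-values were Benjamini-Hochberg adjusted over all features, with a threshold of 0.01 from the study's methods. The scripts were tested on simulated data. The 4 arrays per group limit the precision of every value.

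The members and the gene lists were chosen with earlier results of these data known, and the lists of potassium transporters, sfp genes, HMG and linker histone genes and peroxidases were added after the members had been seen. Families were found by the gene symbols of RefSeq. Genes given with values are the 14 named members, up to 4 per list, the 2 called members with the widest difference in each direction of a control comparison, the 3 probes on each side of the border and genes with 3 or more other probes, with 4 IDs at most. GRMZM2G099483, GRMZM2G124249 and GRMZM2G154149 fall under this rule beyond the 4 IDs. GRMZM2G006363 was singled out after its values were seen, as were the relatives PSY1, lhcb6, HYD1, GLK44, GLK13, his1a, hmg2, HMGe, HAK11, HAK23, sfp6 and gl1. Alternatives were other scalings, filters, signals, blocks for slide and replicate number, other thresholds and leaving out each array.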

Additional observations from a re-analysis of the deposited data

Results flagged for a closer look

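In 9 of the 144 groups of 4 arrays tested among the members, 1 array lay far from the other 3 by Dixon's test, where chance gives about 1 in 20. In 3 of them the distance exceeded 0.5 on the log2 scale. PER42 read -1.97 on replicate 1 of cytTC221 control (others 0.48 to 0.50), GRMZM2G124249 read -1.46 on replicate 4 of cytT248 control (others -0.45 to -0.42), and GRMZM2G099483 read 0.20 on replicate 2 of cytTC221 control (others 0.80 to 0.87). Another probe of GRMZM2G124249 (T03) did not stand apart on that array. The other 6 were closer to their group. HAK8 read 1.73 on replicate 3 of cytTC221 control (others 1.69 to 1.70), his1 read -1.11 on replicate 1 of cytTC221 control (others -1.25 to -1.23), and sfp2 read -1.60 on the same array (others -1.93 to -1.88). At background in TC243 heat, psy2 read -4.53 on replicate 1 (others -4.42 to -4.41), gl4a read -4.25 on replicate 4 (others -4.69 to -4.63) and GRMZM2G154149 read -4.03 on the same array (others -4.53 to -4.49).

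The heat response of 3 named relatives of the members differed between cytolines by a test of the difference itself in the limma fit (15 tests, adjusted p over all genes). GLK44 was raised less in cytTC221 than in TC243 (-1.70, adjusted p = 1.35e-04) and than in cytT248 (-2.03, adjusted p = 1.92e-05), and its control level was -2.90 ± 0.69 in cytTC221, -4.33 ± 0.33 in cytT248 and -4.10 ± 0.10 in TC243 (SD, n = 4 each). PSY1 was lowered less in cytTC221 than in TC243 (1.12, adjusted p = 5.69e-08) and than in cytT248 (1.18, adjusted p = 4.23e-08). For gl1 the measured fall was smaller in cytT248 than in TC243 (0.88, adjusted p = 1.80e-04), and cytTC221 minus cytT248 was -0.91 (adjusted p = 2.71e-05). The heat level of gl1 lies at background. The array medians of the negative control spots in heat averaged -4.68 in cytTC221, -4.31 in cytT248 and -4.56 in TC243. Its control level was -0.30 ± 0.07 in cytTC221, -0.86 ± 0.08 in cytT248 and -0.22 ± 0.10 in TC243 (SD, n = 4 each). The falls of gl1 are thus lower bounds, and their differences do not rank the cytolines. The parts of the control level and of the background in these differences were not tested.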

How the results depend on the processing

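The slide as a fixed block changed the comparisons of the control groups most. With it, 19 member probes were called for cytTC221 minus TC243 (4.28% of all probes), against 46 without it (12%). For cytTC221 minus cytT248, 11 were called (3.42% of all probes), against 30 (9.48%). The slide as a random block left all 3 counts as they were without a block. In the fixed-block fit, replicates 2 and 3 of cytTC221 control did not enter the differences, as no other control array shared their slides. How far fewer arrays or the slides themselves lowered the counts was not tested. The count for cytT248 minus TC243 stayed within 1.5 times (35 against 45), as did all 3 counts under the other scalings, signals and filters. Leaving out 1 array gave 38 to 49 calls for cytTC221 minus TC243, 36 to 42 for cytT248 minus TC243 and 22 to 30 for cytTC221 minus cytT248. The authors' values were not run for these comparisons, because they appeared to be normalized separately within each line.

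Of the 51 named results, 35 kept their call and direction under every alternative run. Leaving out any of 8 single arrays ended the call of glk1 in cytTC221 minus TC243 (adjusted p with limma 0.0109 to 0.0280), and likewise 8 arrays for MYBR41 in that comparison (0.0105 to 0.0268), 9 for MYBR41 (0.0104 to 0.0276) and 6 for MNB1B (0.0107 to 0.0150) in cytT248 minus TC243, and 5 and 7 for psy2 in cytTC221 minus TC243 (0.0112 to 0.0124) and minus cytT248 (0.0103 to 0.0148).

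The labels number the replicates 1 to 4 in each group, but the numbers did not pair the arrays. They were taken from the sample titles, which disagree with the source name on the number of 2 cytTC221 control arrays. Over 12 same-number pairs the correlation of deviations lay between -0.04 and 0.14 (median 0.01). With the replicate number as a block, 43, 42 and 26 member probes were called in the 3 comparisons, and 118 listed genes were lower and 54 higher. With this block 10.3%, 9.18% and 8.17% of all probes were called, and 22.8% of all genes were lower and 36.1% higher. The calls of psy2 (adjusted p = 0.0112 and 0.0124) and glk1 (0.0157) were lost with this block.

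The number of members rests on the border of the fall. At -2 there were 224 member probes and at -3 there were 63, against 117. The selection on background-corrected values gave 97, of which 96 were among the 117. The median fall of the members was -3.45 in cytTC221, -3.18 in cytT248 and -3.66 in TC243. Taken from the scanner's own processed signal it was -5.26, -5.04 and -5.57, with quantile normalization -3.61 in cytT248, and with the 75th percentile over all maize spots -3.56 in cytT248 and -3.89 in TC243. Without 1 array it lay between -3.52 and -3.35 in cytTC221, -3.22 and -3.10 in cytT248, and -3.77 and -3.62 in TC243. Of the listed genes, 78 were lower with only probes detected on all 24 arrays, where 156 genes were left and 29.5% of all genes were lower. Without 1 array, 116 to 122 listed genes were lower and 53 to 55 higher. The background signal of the heat arrays limits the folds of all members.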
